A study of Mus musculus with 12 samples.

Results

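Turnover genes of Notch signalling are described here in mouse embryonic kidney across gestational stages E12, E13, E14, E16 and E18 (days 12, 13, 14, 16 and 18). They are the 6 genes whose symbol on the array was Dtx1, Dtx2, Dtx3, Neurl, Cbl or Sel1l, out of 118 genes on a Notch-pathway oligonucleotide membrane. Each had 1 spot. Kidney RNA of each stage was hybridised to 3 arrays at E12, 3 at E13 and 2 at each of E14, E16 and E18, 12 arrays in all. The sources used here gave no strain, genotype or treatment for any stage, and did not say whether 1 embryo or a pool was used. The labels call the arrays of a stage technical replicates. Except for the slope over gestational day, SDs, intervals and p-values below thus measure the spread between arrays and not between animals. The slope was fitted to the 5 stage means, so its SE and p-value measure their scatter around a line. In whole kidney, fewer cells of a type and less RNA per cell cannot be told apart.

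Notch receptors are cut after binding a ligand on a neighbouring cell, and the freed intracellular part enters the nucleus. How much receptor and ligand stands ready for this depends on ubiquitin ligases, which tag membrane proteins for uptake, recycling or breakdown. In the developing kidney Notch signalling acts when nephrons form and their segments are set. Dtx1 and Dtx2 encode Deltex ligases that bind the intracellular part of Notch, and Dtx3 encodes a shorter relative. Neurl, now named Neurl1a, is the mouse counterpart of Drosophila neuralized, whose product ubiquitinates the ligand Delta. Cbl encodes a ligase best known for removing activated receptor tyrosine kinases from the membrane, and Sel1l a partner of the ligase that disposes of misfolded proteins of the endoplasmic reticulum. Its Caenorhabditis elegans counterpart was found as a negative regulator of the Notch receptor LIN-12.

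The start regions of these genes are shown because short motifs known for the pathway's own nuclear factors can be sought there. Binding was not measured. Promoters from 250 bases before to 50 after the start site were taken from a table of RefSeq promoters (GRCm38.p6), in which 5 of the 6 genes were matched; that of Dtx3 was not used here. TGGGAA, the core bound by the Notch effector Rbpj, occurred on either strand in 2 of these 5 and in 25.6% of all 32851 promoters. CACGCG, a site bound by Hes-type repressors, occurred in 3 of 5 (Dtx1, Cbl and Neurl) and in 9.27% of all. CACGTG, an E-box, occurred in 0 of 5 and in 7.15% of all. The motifs do not overlap each other in these windows. The 30 bases around 4 of the matches are given with the motif in capitals. In Dtx1 (chr5:120711729-120711758, minus strand) and Dtx2 (chr5:135994765-135994794, plus strand) the capitals are the motif's reverse complement. The Cbl window (chr9:44234118-44234147, minus strand) holds 2 copies, and that of Sel1l (chr12:91849141-91849170, minus strand) lies across the start site.
Dtx1: gactcggtgactCGCGTGtcacagcggctg
Cbl: cgcggggCACGCGggtgCACGCGagctcgt
Dtx2: tcagaactacatTTCCCAgaaggcactgcg
Sel1l: gccagggaggccTGGGAAggggcgaagaag
A match describes the letters only. CpG pairs numbered 26 in the promoter of Dtx1, 10 in Dtx2, 28 in Neurl, 43 in Cbl and 20 in Sel1l, against a median of 7 over all promoters. Both CACGCG and CACGTG hold CpG, and the shares over all promoters were not matched for CpG pairs or base content. G and C made up 46.0% (Dtx2) to 74.0% (Cbl) of the bases in these promoters, against a median of 52.7% over all. The shares of these motifs in these genes and in all promoters are therefore not like comparisons.

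Signals are the deposited spot intensities in arbitrary units. Per array, the mean of 6 negative-control spots was 772.5 to 3494.83 and the median gene 2.69 to 7.93 times that mean. A spot counted as above background if it exceeded the mean plus 2 SD of these controls, which 94 to 112 genes did per array. The test covered 106 genes, all 6 members among them, that exceeded background on all arrays of 1 stage or more. Highest background lay on E13 replicate 1, E16 replicate 1 and E18 replicate 1. Of 16 kidney marker genes listed for a check of the tissue label, 0 were on the array, so the label could not be checked. Of other cell types, 6 of 6 listed keratinocyte and 6 of 7 blood cell markers were on it, and 0 endothelial or muscle ones. The keratinocyte markers Krt1, Krt10, Krt14 and Lor exceeded background on all 12 arrays, Krt5 on 10 and Ivl on 5. Of the blood cell markers, Ptcra and Lmo2 did so on 12, Pax5 on 9, Ifng on 6, Il2ra on 5 and Sh2d1a on 3. The source of these signals in samples labelled kidney was not tested.

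No turnover gene passed the test of a difference between stages. Across the 5 stages, 0 of the 6 passed the limma F test (adjusted p of 0.924 to 0.986), against 0.943% of all genes tested. Likewise 0 of 6 passed for E13 minus E12 (0% of all genes), E14 minus E12 (0.943%), E16 minus E12 (1.89%), E18 minus E12 (1.89%), E14 minus E13 (0%), E16 minus E14 (0.943%) and E18 minus E16 (0%). The slope over gestational day passed for 0 of 6 (1.89% of all genes), and so did the mean of E16 and E18 minus the mean of E12 and E13, called late minus early below (3.77% of all genes, 0.943% higher and 2.83% lower). At an unadjusted p under 0.05 the members also numbered 0 in every one of these limma comparisons, where 4 to 18 of the 106 genes lay under it. By the exact 2-sided permutation test over the 10 late and early arrays, 0 of 6 and 0 of all genes passed after adjustment, and 0 of 6 and 17 of 106 had an unadjusted p under 0.05. The smallest p it allows is 0.00476, and the members' unadjusted values by it ran from 0.148 (Dtx3) to 0.971 (Dtx1). Without a model, arrays of 2 stages were also set apart by whether their normalized values overlapped. From E12 to E13 the arrays of 0 of 6 members separated, against 2.83% of all genes higher and 1.89% lower. From E12 to E14, 1 member separated higher and 0 lower (11.3% of all genes each way). From E13 to E14 it was 0 higher and 1 lower (5.66% and 9.43%), from E14 to E16 0 higher and 2 lower (13.2% and 17.9%), and from E16 to E18 2 higher and 0 lower (13.2% and 8.49%). Between E12 and E16 (9.43% higher, 12.3% lower), E12 and E18 (17.9% and 16%) and early and late arrays (1.89% and 5.66%) it was 0 of 6 in both directions. These few separations are described with their genes below. The median size of the late minus early difference was 0.10 log2 units in the 6 genes and 0.17 in all 106, and that of E18 minus E16 was 0.17 in the 6 and 0.14 in all.

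**Figure D1:**
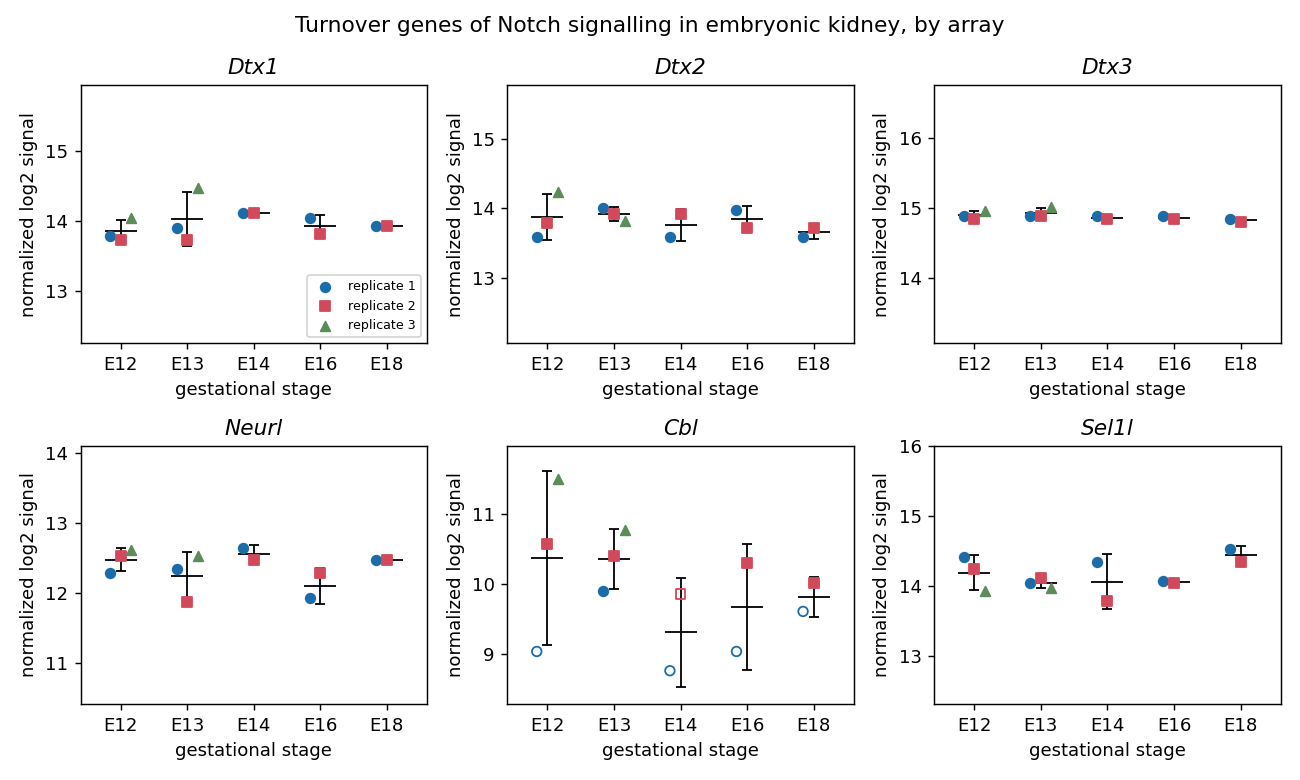
Quantile-normalized log2 signal of each gene (vertical axis, the same span of log2 units in every panel) on each array, by gestational stage, with the stage mean (wide bar) and SD (capped line); filled symbols are above the array's background and open symbols are not. Cbl spreads widely within stages, with 5 open symbols, whereas Dtx3 stays between 14.80 and 15.02 on all arrays.

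Dtx1 had its lowest normalized mean at E12 and its highest at E14, with wide spread at E13. Its signal was 13152, 10743 and 19613 at E12, 16552, 15295 and 31379 at E13, 15330 and 24146 at E14, 14525 and 17848 at E16, and 15361 and 20334 at E18. E13 replicate 3 stood highest and E12 replicate 2 lowest, and the ranges of E12 and E18 overlapped. After background correction and quantile normalization the log2 level was 13.85 ± 0.17 (SD, n = 3) at E12, 14.03 ± 0.39 (SD, n = 3) at E13 and 13.93 ± 0.16 (SD, n = 2) at E16. Both E14 arrays shared the value 14.12 and both E18 arrays 13.92, since quantile normalization gives the same value to the same rank. In the order E12, E18, E16, E13, E14, from low to high, the arrays of each pair of neighbours overlapped. E18 minus E12 was 0.075 log2 units (SE 0.21, limma adjusted p = 0.944), with a 95% interval from 1.33-fold lower to 1.48-fold higher. Both E14 arrays lay above all 3 E12 arrays, by 0.27 log2 units on average (SE 0.21, limma adjusted p = 0.844). It was the 1 member of 6 with that separation, which holds for the normalized values only: E14 replicate 1 lay below E12 replicate 3 in signal and in the deposited ratio (37.9% against 48.3% of Ppia).

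Dtx2 had its lowest normalized mean at E18 and its highest at E13. The signal was 12232, 10910 and 22959 at E12, 17627, 16951 and 19864 at E13, 11025 and 22177 at E14, 13277 and 16289 at E16, and 13251 and 17270 at E18. E12 replicate 3 was the brightest array, and at E14 replicate 2 read 2.01 times replicate 1, so the stages overlapped. On the normalized log2 scale the means were 13.87 ± 0.33 (SD, n = 3) at E12, 13.92 ± 0.097 (SD, n = 3) at E13, 13.76 ± 0.23 (SD, n = 2) at E14, 13.85 ± 0.18 (SD, n = 2) at E16 and 13.66 ± 0.089 (SD, n = 2) at E18. Neighbours in the order E18, E14, E16, E12, E13 overlapped. E18 minus E12 was -0.21 log2 units (SE 0.20, limma adjusted p = 0.73), an interval from 1.59-fold lower to 1.18-fold higher. Per day of gestation the slope was -0.033 log2 units with an SE of 0.021, and its adjusted p by limma was 0.547.

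Dtx3 had the narrowest range of normalized stage means of the 6, 0.10 log2 units. Its signal was 25207, 25856 and 38953 at E12, 28803, 34272 and 42057 at E13, 25966 and 35976 at E14, 25052 and 34976 at E16, and 27024 and 34889 at E18. In each of the later stages replicate 2 was brighter than replicate 1, by 1.29 to 1.40 times, and all stages overlapped. The normalized level was 14.89 ± 0.060 (SD, n = 3) at E12, 14.92 ± 0.081 (SD, n = 3) at E13, 14.86 ± 0.023 (SD, n = 2) at E14 and at E16, and 14.82 ± 0.030 (SD, n = 2) at E18. Neighbouring stages overlapped in the order E18, E14 with E16, E12, E13. Late minus early was -0.067 log2 units (SE 0.074, limma adjusted p = 0.767), an interval from 1.18-fold lower to 1.07-fold higher. Dtx3 belongs to the brightest 35 genes, whose arrays within a stage had a median SD of 0.14 log2 units, against 0.58 in the dimmest 36. Its own SD within stages was 0.056 after quantile normalization, at or above that of only 3.77% of the genes tested. By shared rank, the values 14.84 and 14.88 each recurred on several arrays, so this SD belongs to the normalized scale. On the authors' deposited ratios, which set each spot against the housekeeping gene Ppia, Dtx3 ran from 65.9% of Ppia (E14 replicate 1) to 96.0% (E12 replicate 3). There its SD within a stage ran from 5.26 (E13) to 14.2 (E12), in percent of Ppia.

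Neurl had its lowest mean at E16 and its highest at E14 after quantile normalization, a range of 0.46 log2 units, whereas the mean signal was lowest at E12 (5277) and highest at E18 (9144). Its signal was 6162, 4476 and 5193 at E12, 9076, 3052 and 5932 at E13, 6789 and 7617 at E14, 5055 and 6077 at E16, and 9679 and 8609 at E18. The E13 arrays spanned nearly the whole range of the series, and both E18 arrays were above both E16 arrays. All 12 spots were above background, at 2.17 to 8.80 times the negative-control mean. Normalized levels were 12.48 ± 0.17 (SD, n = 3) at E12, 12.25 ± 0.34 (SD, n = 3) at E13, 12.56 ± 0.13 (SD, n = 2) at E14, 12.11 ± 0.26 (SD, n = 2) at E16 and 12.47 on both E18 arrays. In the order E16, E13, E18, E12, E14 neighbours overlapped. E16 minus E14 was -0.46 log2 units (SE 0.23, limma adjusted p = 0.794), and both E16 arrays lay below both E14 arrays. Dtx1 did the same, at -0.19 (SE 0.23), so 2 of 6 members separated in that direction, against 17.9% of all genes. The E14 and E16 arrays of Dtx1 overlapped in signal and in the deposited ratio, and those of Neurl did not. The 6 keratinocyte markers summed to a deposited signal, background included, of 29837 to 34236 at E16. That was below their 35294 to 53387 at E14 and 42160 to 48790 at E18. Singly they were split in normalized E16 minus E14. Krt1 (-0.87 log2 units), Krt5 (-0.52), Krt10 (-0.37) and Lor (-1.57) were lower, and Ivl (1.07) and Krt14 (0.62) higher. The part of these markers in the Neurl values was not tested. E18 minus E16 was 0.37 log2 units (SE 0.23, limma adjusted p = 1), again without overlap of the arrays.

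The direction of Neurl over the whole period depended on the scaling. Late minus early was -0.074 log2 units (SE 0.15, limma adjusted p = 0.892) after quantile normalization and -0.039 with array medians. It was 0.26 with housekeeping scaling, 0.32 with no normalization and 0.28 on the deposited ratios, and it passed the limma threshold under none of these 5. Without the 3 arrays of highest background it was 0.028. The median of all genes in this comparison lay at -0.27 log2 units with array medians and at 0.034 to 0.089 under the other 4 scalings. Relative to that median Neurl stood at -0.11 after quantile normalization and at 0.20 on the deposited ratios. It stood at 0.23 with array medians, housekeeping scaling and no normalization. These differ only by a shift of each whole array, so they give the same value by arithmetic and are not separate evidence.

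**Figure D2:**
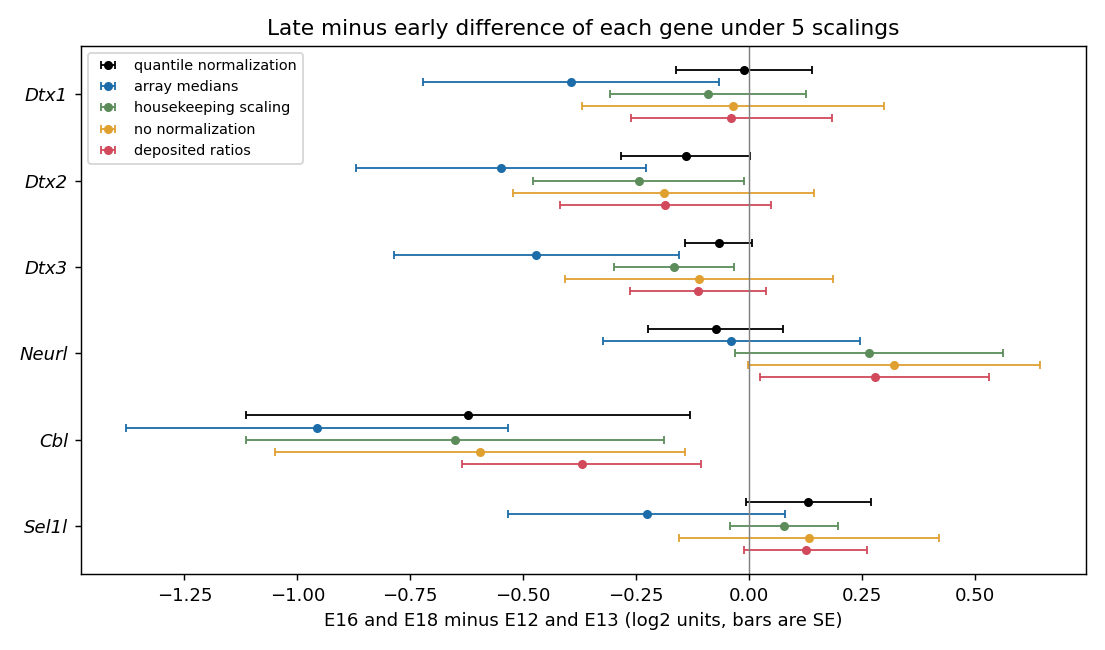
Difference between late (E16 and E18) and early (E12 and E13) arrays in log2 units (horizontal axis) for each gene under 5 scalings, with SE as bars. Neurl lies left of 0 after quantile normalization and with array medians and right of 0 in the other 3, Sel1l lies left of 0 with array medians, and the other 4 genes lie left of 0 throughout.

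Cbl could be measured on only part of the arrays. Its signal was 1075, 2213 and 2795 at E12, 3851, 1321 and 1862 at E13, 1436 and 966 at E14, 2036 and 1683 at E16, and 3610 and 1405 at E18. Of these, 2 of 3 E12 spots, 3 of 3 E13 spots, 0 of 2 E14 spots and 1 of 2 at both E16 and E18 exceeded background, 7 in all. The highest signals, 3851 and 3610, fell on the arrays of highest background, where they were 1.29 and 1.03 times the negative-control mean. The largest excess was 3.04 times that mean, on E12 replicate 3. Of the 5 arrays where Cbl was not above background, 4 were replicate 1 of their stage and the other was E14 replicate 2.

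Normalized levels of Cbl were 10.37 ± 1.25 (SD, n = 3) at E12, 10.35 ± 0.43 (SD, n = 3) at E13, 9.31 ± 0.78 (SD, n = 2) at E14, 9.67 ± 0.90 (SD, n = 2) at E16 and 9.81 ± 0.29 (SD, n = 2) at E18. At E14 this is only a bound, and Cbl was among the genes tested through E13 alone, the 1 stage with all its spots above background, so the lower value at E14 is a description. For a bound, each E14 array was given the higher of the gene's own value and the lowest value among genes above background. By this bound the mean of Cbl at E14 was at least 1.38-fold below that at E13, without allowance for the spread between arrays. The means at E16 and E18 were 0.861 and 0.949 times the E14 bound, so the bound does not place E14 below them. As measured, the 95% interval ran from 6.19-fold lower to 1.45-fold higher at E14, and Cbl did not pass the test (limma adjusted p = 0.926). Both E14 arrays lay below all 3 E13 arrays in normalized value (9.86 against 9.90 at the closest), while in signal they overlapped (1436 at E14, 1321 at E13). Late minus early was -0.62 log2 units as measured (SE 0.49, limma adjusted p = 0.659), with 2 of 4 late and 1 of 6 early spots not above background, so it is no exact fold. It ran from -0.96 to -0.30 when 1 array was left out. E13 minus E12 was -0.014 log2 units and turned on single arrays, at -0.68 without E12 replicate 1 and 0.56 without E12 replicate 3. Neighbours in the order E14, E16, E18, E13, E12 overlapped. The SD of Cbl between arrays of a stage, 0.84 log2 units over all stages, was higher than that of 95.3% of the genes tested or equal to it.

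**Figure D3:**
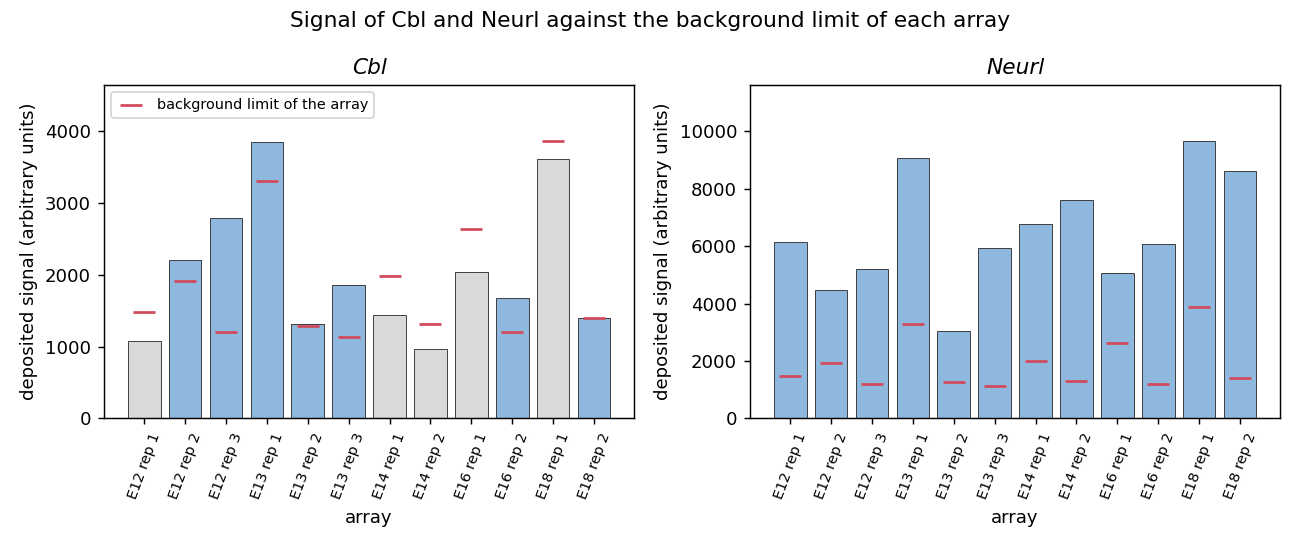
Deposited signal of Cbl and Neurl in arbitrary units (bars, from 0) on each of the 12 arrays, with the array's background limit (red dash, mean plus 2 SD of the negative controls); blue bars exceed the limit and grey bars do not. Cbl exceeds the limit on 7 arrays and Neurl on all 12.

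Sel1l had its highest mean at E18. The signal was 17911, 15201 and 18711 at E12, 17649, 21067 and 23972 at E13, 17060 and 20585 at E14, 14806 and 21988 at E16, and 22490 and 27365 at E18. E18 replicate 2 was the brightest array, while E18 replicate 1 lay within the range of E13. Normalized levels were 14.19 ± 0.25 (SD, n = 3) at E12, 14.04 ± 0.069 (SD, n = 3) at E13, 14.06 ± 0.39 (SD, n = 2) at E14, 14.06 ± 0.028 (SD, n = 2) at E16 and 14.44 ± 0.14 (SD, n = 2) at E18. E18 minus E12 was 0.25 log2 units (SE 0.20, limma adjusted p = 0.683), an interval from 1.15-fold lower to 1.62-fold higher, and with array medians it was -0.21, where the median of all genes was -0.44. E18 minus E16 was 0.38 log2 units (SE 0.21, limma adjusted p = 1). Both E18 arrays lay above both E16 arrays, as for Neurl. The 6 blood cell markers summed to a deposited signal of 44619 to 48345 at E18 and 37452 to 41071 at E16. These sums include background, whose mean per spot was 3494.83 on E18 replicate 1 and 2324.33 on E16 replicate 1. Ifng, Il2ra and Sh2d1a exceeded background on only 6, 5 and 3 arrays. The 4 markers tested had a median normalized E18 minus E16 of 0.16 log2 units. The part of these markers in the Sel1l and Neurl values was not tested. Neighbours in the order E13, E16, E14, E12, E18 overlapped.

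On the deposited ratios the E18 arrays of Sel1l stood apart from the rest. The ratio was 50.4%, 41.1% and 46.1% of Ppia at E12, 43.7%, 48.2% and 48.7% at E13, 42.5% and 47.7% at E14, 39.4% and 48.7% at E16, and 56.3% and 60.3% at E18. Both E18 values thus exceeded all 10 other arrays, which 5.71% of the genes tested did on this scale (6 of 105). The pattern was picked after its values were seen, and the limma test on the ratios did not pass (E18 minus E12 0.34 log2 units, SE 0.19, adjusted p = 0.761). The median gene's ratio, as a fraction of Ppia, was 0.194 and 0.165 on the E18 arrays and 0.0874 to 0.193 on the others, and its part in the Sel1l values was not tested. Neurl was at 19.9% and 18.9% of Ppia at E18, with E13 replicate 1 between them at 19.5%.

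**Figure D4:**
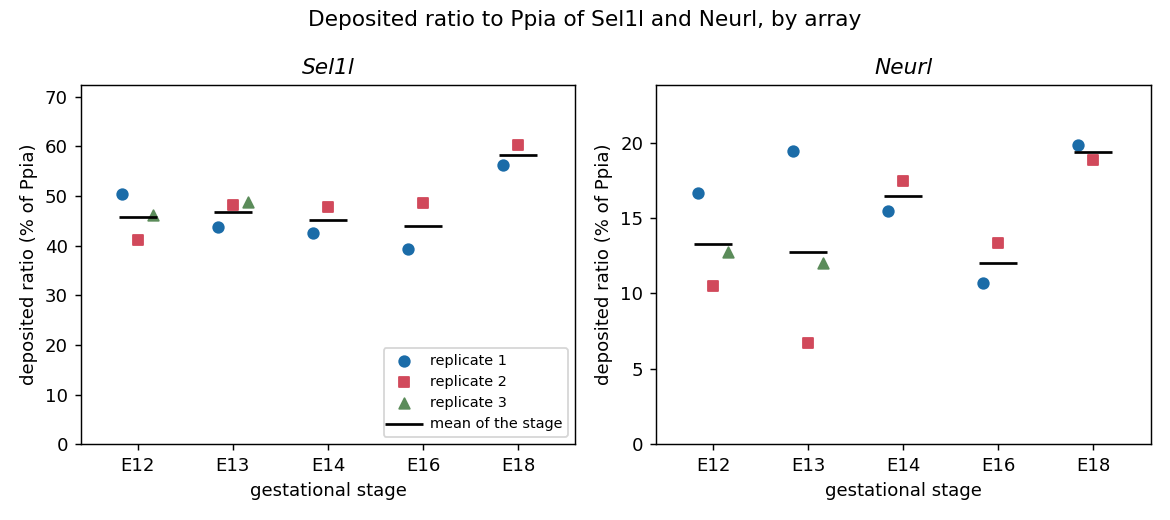
Deposited ratio to Ppia in percent (vertical axis, from 0) of Sel1l and Neurl on each array by gestational stage, with the stage mean as a bar. For Sel1l the E18 arrays, at 56.3% and 60.3%, lie above all others, and for Neurl E13 replicate 1 lies within the E18 pair.

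The stage profiles of the 6 genes were set against each other and against all tested genes by the root-mean-square difference of the 5 stage means, each profile centred on its own mean. Among the members Dtx2 and Dtx3 were closest (0.062 log2 units) and Neurl and Cbl farthest apart (0.47). Nearest to Dtx1 were Psenen (0.018), a gamma-secretase subunit, and Smo (0.028), the Hedgehog signal transducer, where the median over all other genes was 0.23. Hes6 (0.041), a Hes family member, and Dtx3 were nearest to Dtx2. Adam17 (0.029), a sheddase, and Hsp90ab1 (0.032), a chaperone used as housekeeping gene, were nearest to Dtx3. The nearest to Neurl were Ifng (0.071), a cytokine above background on only 6 of 12 arrays, and Krt10 (0.076), a keratin. Those nearest to Cbl were Snw1 (0.18), a nuclear co-activator, and Tead1 (0.22), a transcription factor whose spot was the dimmest on E14 replicate 2. Hes1 (0.097), a Notch target, and Maml1 (0.12), a nuclear co-activator, came nearest to Sel1l. Flat profiles resemble each other by this measure, and it is a description over 5 stages without a test.

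The rest of the pathway on the array gives the scale of these values. In 8 lists of receptors, ligands, fringe and O-fucose enzymes, Numb genes, receptor proteases, nuclear co-activators, co-repressors and Hes and Hey targets, 39 genes were tested. For E16 minus E12, 1 of them was higher past the limma threshold (Jag1, a Notch ligand, 0.95 log2 units, SE 0.17, adjusted p = 0.0212) and 0 were lower. For E18 minus E12, 1 of them was higher past the limma threshold (Jag1 again, 0.85 log2 units, SE 0.17, adjusted p = 0.0476) and 0 were lower. With the replicate block, and without any 1 of the 5 E12 and E18 arrays, 0 genes passed for E18 minus E12. For E16 minus E12, 1 gene passed with that block and 0 without the 3 arrays of highest background. For late minus early, the F test and the slope, 0 of 39 passed, and 3, 1 and 4 had an unadjusted p under 0.05. The median of E18 minus E12 was 0.11 log2 units in these 39 genes, -0.038 in the 6 turnover genes and 0.021 in all 106. For late minus early these medians were 0.098, -0.070 and 0.040.

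**Figure D5:**
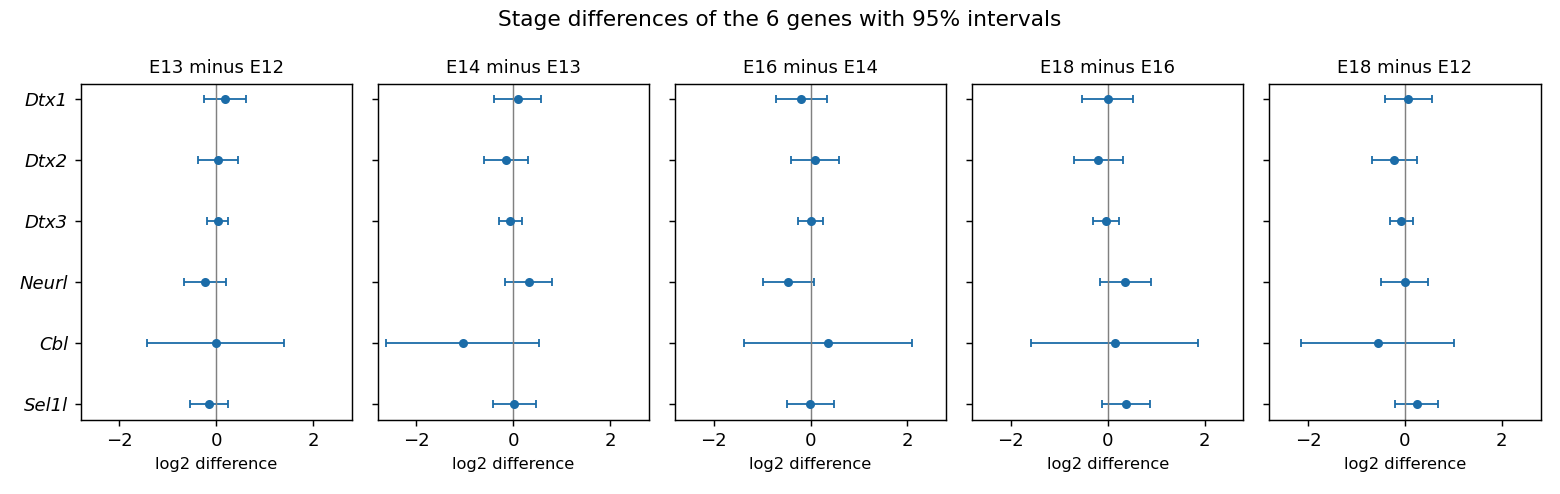
Difference between stages in log2 units (horizontal axis) of each gene for 4 successive steps and for E18 minus E12, with 95% intervals from the limma fit. Every interval includes 0; those of Cbl are the widest and those of Dtx3 the narrowest.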

How the data were processed

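Per the labels' protocols, TRIzol RNA was amplified and labelled with biotin. The deposited intensity is 1 whole number per spot. The sources used here do not name the image software. Negative controls lay well above 0, so the intensity was taken as not background-subtracted. The authors' deposited ratio equals, from the values, spot signal less that of the array's dimmest spot, divided by mean Ppia signal less the same. This was checked on single gene spots. In limma 3.58.1 (R 4.3.3), intensities were corrected by normexp (offset 50), converted to log2, normalized by quantiles over 120 gene spots and averaged per gene. One fit held a mean per stage over 12 arrays (7 residual and 1.72 prior degrees of freedom). A second limma fit gave the slope from 5 stage means. All tests were 2-sided, with Benjamini-Hochberg adjustment over 106 genes and a threshold of 0.05. Accessions matched RefSeq for all 6 genes.

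The scripts were tested on simulated data. The members, lists and rule for named genes (all members, the 2 likest genes of each, and listed pathway genes past the threshold) were chosen with earlier results of these data known. Deviations of same-numbered E12 and E13 arrays correlated at 0.12 to 0.22 in all 3 pairs, which met the rule for paired numbers, with no label saying so. The main fit has no block, and the replicate block is an alternative. Over all stages 8 of 21 same-numbered pairs exceeded 0.1. Deviations of the arrays in a stage of 2 are mirror images. Pairs among E14, E16 and E18 therefore repeat values by arithmetic, and the 21 are not all separate. Alternatives covered background, scaling, filter, prior, block and left-out arrays. Number of arrays limits the precision.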

Additional observations from a re-analysis of the deposited data

How the results depend on the processing

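In each of 32 alternative settings, 0 of the members tested passed the threshold in any comparison, so leaving out 1 array or stage gave 0 to 0 members throughout. The replicate block changed no member's call: late minus early became -0.24 log2 units for Cbl and 0.15 for Dtx1. Of 1326 differences and slopes of members under the alternatives, 120 changed sign, from 9 of Dtx3 to 27 of Dtx1. E16 minus E14 of Dtx3 was 0 in the main fit, so its alternatives could not count as a changed sign. A move was set against the SD between arrays of a stage for differences and against the SE of the slope for slopes. By that measure 73 moved by more, 19 of them of Dtx3 and 19 of Neurl. These counts include scalings that shift all genes. Fitted to the arrays of the stages compared alone, Cbl was tested only where E13 took part, since fewer arrays enter its filter. Over all genes, counts past the threshold ran from 0 to 7 for E18 against E12 (main value 2), 0 to 4 for E16 against E12 (2), 0 to 2 for E16 against E14 (1), and 0 to 1 for E14 against E12 (1), E13 against E12 (0) and E14 against E13 (0). They ran from 0 to 8 for late against early (4), 0 to 6 for the F test (1) and 0 to 12 for the slope (2), and stayed at 0 for E18 against E16. The cause was not tested. Signal over background limits Cbl most.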
